A study of Mus musculus with 24 samples.

Results

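The RPE/choroid of the mouse eye was compared with the cornea, iris, lens, retina and sclera of the same study by miRNA microarray. The 3 arrays labelled choroid, out of 24 arrays in all, were the samples of interest, and the 15 arrays of the other 5 ocular tissues were the comparison. The remaining arrays came from brain regions and were not compared here. All mice were of the C57BL/6J strain, and per the study's methods they were males. Each tissue was measured on 1 array in each of 3 lens groups, namely normal eyes without a lens (labelled Control), eyes with a 0D lens, and lens-induced eyes, which wore a negative lens on the right eye for 3 weeks from 3 weeks of age. The normal and lens-induced arrays each received an equal mixture of RNA from 3 mice, whereas the methods give no pooling or wearing time for the 0D group. The 3 lens groups served as near-replicates of a tissue. Each of the 3 slides carried a single lens group and all 6 ocular tissues, and so an effect of the slide and one of the lens cannot be told apart. The p-values therefore measure only the spread among the 3 arrays of a tissue, which also differ in lens group and at least in part carried pooled RNA. For each miRNA this spread was estimated jointly over all 18 ocular arrays, so that 1 uneven tissue affects every contrast. The RPE/choroid and the sclera were parted with scalpels, so that pieces of a neighboring layer could be included in either.

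The retinal pigment epithelium (RPE) is a sheet of pigmented cells that feeds the photoreceptors, and the choroid beneath it is a layer rich in blood vessels, pigment cells and connective tissue. The choroid lies between the retina and the sclera, the collagen-rich outer wall of the eye. A miRNA is a short RNA that pairs with messenger RNAs mainly through its seed, bases 2 to 8, and lowers their output. Many miRNAs are made mainly by certain cell types, and so they can describe the makeup of a dissected tissue.

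The mature sequences on which the comparison turned are shown first, from RefSeq on the GRCm38.p6 build, with the seed in capitals. Mmu-miR-126a-3p, an endothelial miRNA, was the one with the largest difference from the mean of the other tissues. It lies on the plus strand at chr2:26591402-26591423 within Egfl7, a gene of endothelial cells.
mmu-miR-126a-3p: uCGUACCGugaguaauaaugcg

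The connective tissue miRNAs below were high in both RPE/choroid and sclera. One copy of miR-199a (chr1:162217883-162217904 for the 3p arm) and miR-214 (chr1:162223438-162223459 for the 3p arm) lie on the plus strand of chromosome 1 within Dnm3 and its antisense transcript Dnm3os. A second copy of miR-199a lies within Dnm2 on chromosome 9.
mmu-miR-199a-3p: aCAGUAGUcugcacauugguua
mmu-miR-199a-5p: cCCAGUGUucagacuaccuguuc
mmu-miR-214-3p: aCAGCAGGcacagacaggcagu

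The miRNAs of pigmented cells are shown because the 5p arms of miR-204 and miR-211 share 1 seed but were highest in different tissues. Mir204 lies in Trpm3 (chr19:22750610-22750631 for the 5p arm, plus strand) and Mir211 lies in Trpm1 (chr7:64205831-64205852 for the 5p arm, plus strand).
mmu-miR-204-5p: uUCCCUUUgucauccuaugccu
mmu-miR-211-5p: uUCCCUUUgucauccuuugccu
mmu-miR-204-3p: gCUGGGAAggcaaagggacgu

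The epithelial miRNAs below were not detected in RPE/choroid. Those of miR-200b, miR-200c and miR-429 share 1 seed. Mir200b (chr4:156055685-156055706) and Mir429 (chr4:156053916-156053937) are neighbors on the minus strand, and Mir200c is on chromosome 6.
mmu-miR-200b-3p: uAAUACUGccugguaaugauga
mmu-miR-200c-3p: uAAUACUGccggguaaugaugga
mmu-miR-429-3p: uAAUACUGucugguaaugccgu
mmu-miR-205-5p: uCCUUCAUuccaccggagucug

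The array carried probes for 1881 mouse miRNAs, with 30 spots for each. The 3 RPE/choroid arrays detected 222, 222 and 239 of them, with 210 detected on all 3 arrays. Signals are given below in the order normal, 0D lens and lens-induced, as the summed probe signal after scaling the arrays to each other. Log2 signals of the 3 RPE/choroid arrays correlated across miRNAs at r = 0.99, 0.98 and 0.98, and 197 of the 210 miRNAs stayed within a 2-fold range of signal over the arrays. Among the 13 exceptions were mmu-miR-574-3p and mmu-miR-690. Detection limits differed between tissues, with array medians of 7.60 to 9.19 in RPE/choroid but 15.8 to 24.3 in cornea and 21.9 to 27.4 in lens. A dim miRNA could therefore be missed in cornea or lens and seen in RPE/choroid.

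On the same slide, RPE/choroid was most like sclera in its miRNA signals. The correlation of log2 signals across the miRNAs detected on both arrays was 0.96, 0.95 and 0.94 for sclera in the 3 lens groups, over 201 to 210 miRNAs. It was 0.87, 0.85 and 0.88 for iris, 0.78, 0.79 and 0.80 for cornea, and 0.78, 0.74 and 0.74 for retina. The lens was least like RPE/choroid, at 0.55, 0.60 and 0.61. These correlations describe arrays that share a slide, and miRNAs are not independent replicates.

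Differences were tested with limma over 295 miRNAs detected on all 3 arrays of at least 1 ocular tissue. Signals under a common floor of 9.93 were set to that floor. A miRNA counted as higher or lower when the adjusted p was under 0.05 and the log2 difference was at least 1 in size, in the same direction, in each of the 3 lens groups. Against single tissues, RPE/choroid differed least from sclera, with 1 miRNA higher (0.339% of those tested) and 9 lower (3.05%). Against iris 16 were higher (5.42%) and 14 lower (4.75%), against cornea 35 (11.9%) and 24 (8.14%), against retina 34 (11.5%) and 43 (14.6%), and against lens 55 (18.6%) and 52 (17.6%). These splits depend on the scaling of the arrays. Without scaling they were 23 higher and 2 lower for sclera, 26 and 24 for iris, 101 and 11 for cornea, 43 and 73 for retina, and 118 and 22 for lens. With quantile normalization they were 2 and 6 for sclera, 12 and 17 for iris, and 36 and 32 for retina. With a normexp background correction they were 1 and 2 for sclera, 15 and 7 for iris, 6 and 30 for cornea, 17 and 23 for retina, and 12 and 135 for lens.

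**Figure D1:**
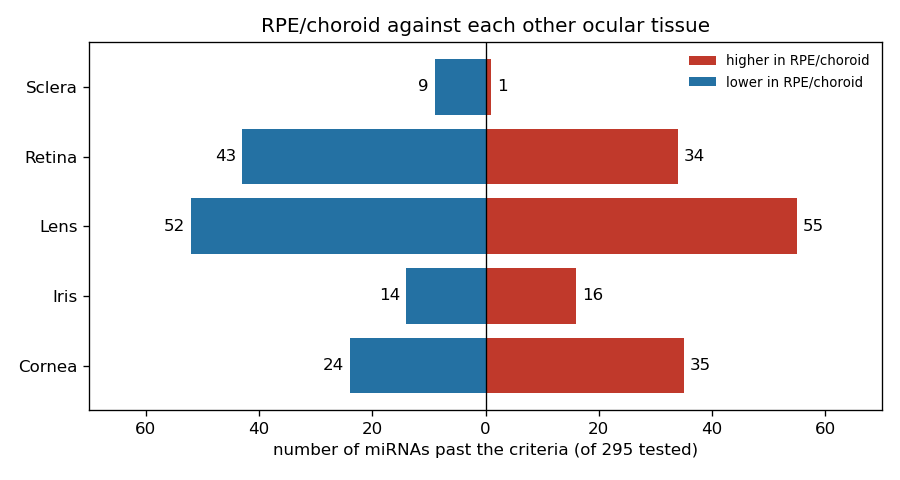
Number of miRNAs higher (right bars) and lower (left bars) in RPE/choroid than in each other ocular tissue, of 295 tested with limma. Sclera has the shortest bars, 1 and 9, and lens the longest, 55 and 52.

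Against the mean of the other 5 tissues, 17 miRNAs were higher in RPE/choroid (5.76% of those tested) and 6 were lower (2.03%). Those that were higher include miRNAs of endothelium, of blood cells, of connective tissue and of retina, and those that were lower include miRNAs of surface epithelium and of cornea and lens. The median log2 difference over all 295 miRNAs was -0.03. Without scaling 41 were higher and 5 lower, so that 89.1% of the calls were higher against 73.9% with scaling. With the floor raised to 27.4, the highest median detection limit of an array, 8 of the 17 remained, namely mmu-miR-126a-3p, mmu-miR-3473b, mmu-miR-199a-3p, mmu-miR-9-3p, mmu-miR-140-3p, mmu-miR-124-3p, mmu-miR-199b-5p and mmu-miR-99a-5p. With a normexp background correction the first 3 of these remained. In bulk tissue, fewer cells of a type and less RNA per cell cannot be told apart. Of the 17 that were higher, 10 had a still higher mean in sclera, 13 were higher than in retina and 2 were lower than in retina. No miRNA was past the criteria against each of the 5 tissues in either direction (0%), while at an unadjusted limma p under 0.05 without the size criterion 6 were higher in all 5 contrasts and 0 were lower.

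The clearest RPE/choroid miRNA was mmu-miR-126a-3p, which is made by the endothelial cells that line blood vessels. Its signal was 1198, 1030 and 1203 in RPE/choroid. It was 331, 350 and 329 in iris, 393, 387 and 242 in sclera, and 70.5, 75.1 and 67.5 in retina. The RPE/choroid arrays lay above all other ocular arrays, with no overlap. It was not detected on any lens array, where RPE/choroid was at least 45.1-fold higher, and only the lens-induced cornea array detected it, at 86.5. Here and below, such a bound sets the geometric mean of the brighter tissue over its 3 arrays against the mean detection limit of the other tissue. The log2 difference from the mean of the other tissues was 4.04 ± 0.47 (SE, 3 against 15 arrays, adjusted p = 7.2e-06). Against sclera the difference was 1.78 ± 0.60 and just missed the threshold, with an adjusted p of 0.0504 by limma. Leaving out the normal, 0D or lens-induced cornea array gave an adjusted p against sclera of 0.037, 0.036 or 1.8e-06, and in each case mmu-miR-126a-3p was past the criteria against all 5 tissues. Without any 1 of the other 15 arrays the adjusted p against sclera was 0.060 to 0.16, highest without the lens-induced sclera array, and it was 0.063 with the lens group as a block. The difference from iris, 1.76 ± 0.60, was past the threshold at an adjusted p of 0.039 but not with the lens group as a block (0.053), without scaling (0.058) or without any 1 of the RPE/choroid or iris arrays (0.076 to 0.10), and it rose to at most 0.051 without 1 lens or retina array. With undetected values at 0.1 the adjusted p was 0.57 against iris and 0.066 against retina, and neither call was kept. The other arm, mmu-miR-126a-5p, was near the detection limit, at 4.04 and 4.55 on the normal and lens-induced RPE/choroid arrays. It was detected on no other ocular array.

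Blood cell miRNAs were also higher in RPE/choroid than the mean of the other tissues, in both members tested of 8 on the array, with a median log2 difference of 1.43. Over all miRNAs tested, 5.76% were higher. Both calls were lost at 2 times the floor, with the floor raised to 27.4, with quantile normalization and with normexp. Lens detected neither mmu-miR-451a nor mmu-miR-223-3p, and RPE/choroid was at least 1.74-fold and 2.15-fold above the lens limit. Mmu-miR-451a, a miRNA of red blood cells, gave 34.2, 41.8 and 59.4 in RPE/choroid against 33.5, 37.0 and 32.3 in iris and 32.8, 32.4 and 25.4 in sclera. The RPE/choroid array was the highest of the 6 tissues in each lens group, though by a narrow margin on the normal slide. Its difference from the mean was 1.39 ± 0.13 (SE), while those from iris (0.36 ± 0.17) and sclera (0.55 ± 0.17) did not reach a log2 difference of 1. Mmu-miR-223-3p, a miRNA of myeloid cells, gave 53.1, 52.6 and 58.2 in RPE/choroid, 37.0, 46.6 and 38.3 in iris, and 56.8, 51.4 and 42.0 in sclera. RPE/choroid and sclera overlapped for this miRNA. It was not detected in lens or retina, and RPE/choroid was at least 9.38-fold above the retina limit. Of the other blood cell members, mmu-miR-142a-3p was detected on 2 RPE/choroid arrays, near the limit, and the rest on none.

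Connective tissue miRNAs formed the largest group. All 4 mesenchyme members tested of 5 on the array were higher than the mean of the other tissues, with a median log2 difference of 1.91. All 4 were lower than in sclera, with a median of -1.30. Over all miRNAs tested, 5.76% were higher than the mean and 3.05% were lower than in sclera. Against the mean, mmu-miR-199a-5p lost the call at 2 times the floor and with quantile normalization. It and mmu-miR-214-3p lost it with the floor raised to 27.4, and with normexp mmu-miR-199a-3p alone kept it. Against sclera, the median without scaling was -0.74 and mmu-miR-199b-5p alone was past the criteria. With normexp 2 of the 4 were past the criteria against sclera, mmu-miR-199a-3p and mmu-miR-199b-5p. Mmu-miR-199a-3p gave 354, 367 and 349 in RPE/choroid and 907, 929 and 832 in sclera. Its signal was 227, 249 and 220 in cornea and 93.0, 100 and 84.0 in iris. In retina it was only 3.63, 4.02 and 4.78. The tissues did not overlap, and RPE/choroid held the second place after sclera. Mmu-miR-214-3p gave 77.8, 98.3 and 74.6 in RPE/choroid and 185, 203 and 153 in sclera, against 13.4, 11.9 and 11.8 in iris. It was not detected in retina or lens. Mmu-miR-199a-5p and mmu-miR-199b-5p had log2 differences from the mean of 1.35 ± 0.06 and 1.69 ± 0.04 (SE), and from sclera of -1.29 ± 0.08 and -1.85 ± 0.05. The 199b-5p signal in RPE/choroid, at 267, 271 and 283, was below that in cornea, at 339, 308 and 309.

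The arms of miR-140, a miRNA of cartilage that lies within Wwp2 on chromosome 8, were also highest in sclera, followed by RPE/choroid and then retina. Mmu-miR-140-3p gave 84.7, 101 and 89.4 in RPE/choroid, 164, 181 and 134 in sclera, and 39.8, 35.8 and 33.4 in retina. Mmu-miR-140-5p gave 111, 88.9 and 114 in RPE/choroid and 229, 190 and 183 in sclera. Both arms were lower in RPE/choroid than in sclera on every slide, but with log2 differences under 1 in size (-0.80 ± 0.10 and -0.94 ± 0.17, SE). From the mean of the other tissues they differed by 1.83 ± 0.08 and 1.44 ± 0.13. Mmu-miR-455-3p, the third member tested of this list, differed from the mean by 0.05 ± 0.09. The 3 members of miR-29, which targets collagen messages, were not past the criteria against the mean (median 0.53). They were higher than in lens, as were 18.6% of all miRNAs tested. For mmu-miR-29a-3p the signals were 1177, 1081 and 1140 in RPE/choroid against 90.8, 128 and 119 in lens.

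**Figure D2:**
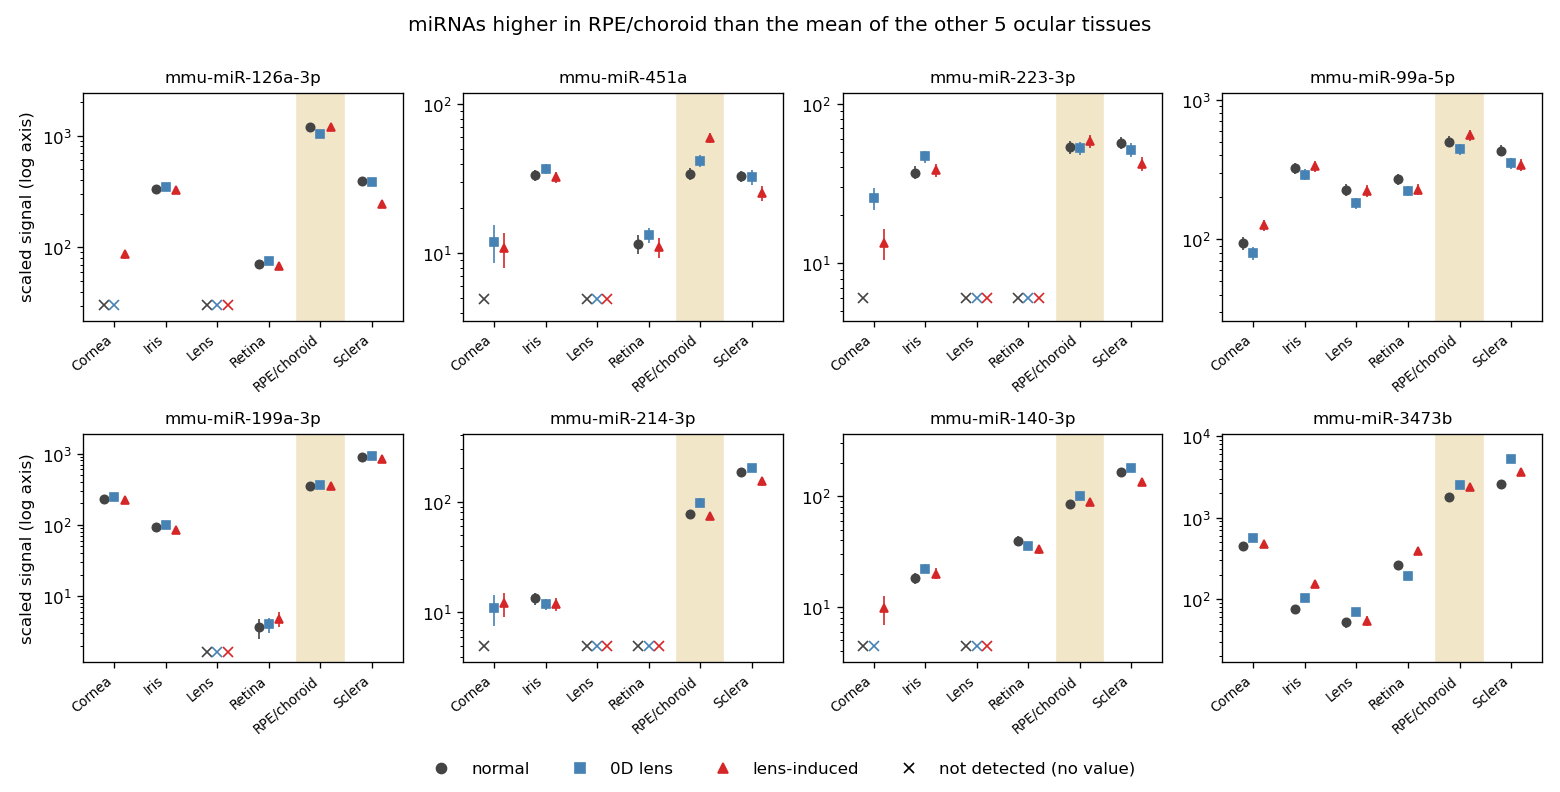
Scaled signal (log axis) of 8 miRNAs higher in RPE/choroid than the mean of the other 5 ocular tissues, by tissue and lens group, with bars for the error of the signal on 1 array and crosses for arrays that did not detect the miRNA. Mmu-miR-126a-3p is highest in RPE/choroid (shaded), while mmu-miR-199a-3p, mmu-miR-214-3p and mmu-miR-140-3p are highest in sclera.

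Other miRNAs that were higher than the mean are less tied to a cell type. Mmu-miR-99a-5p, a widely expressed miRNA, gave 501, 443 and 559 in RPE/choroid, the highest of the 6 tissues on every slide. Its next highest tissue was sclera at 432, 351 and 342, and the ranges nearly touched, at 443 and 432. Mmu-miR-322-5p was steady in RPE/choroid at 75.9, 76.0 and 76.6, below cornea at 136, 133 and 123. Mmu-miR-152-3p gave 48.8, 62.4 and 47.8 in RPE/choroid and was higher still in sclera, at 103, 114 and 83.7.

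Mmu-miR-3473b gave 1793, 2489 and 2406 in RPE/choroid and 2589, 5287 and 3625 in sclera, against 261, 195 and 388 in retina. Its relative mmu-miR-3473a gave 26.7, 40.8 and 35.8 in RPE/choroid and was detected in retina and sclera as well. RPE/choroid and sclera were thus the highest tissues for both. The sequences share a run of 16 bases (uggagagauggcucag), and whether 1 RNA gave signal on the probes of both was not tested. Mmu-miR-690 varied over the lens groups, at 61.4, 143 and 83.9 in RPE/choroid and from 77 to 170 in sclera, with the 0D array highest in both tissues. The adjusted p-values of the 17 higher miRNAs were at most 0.00097 (limma).

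**Figure D3:**
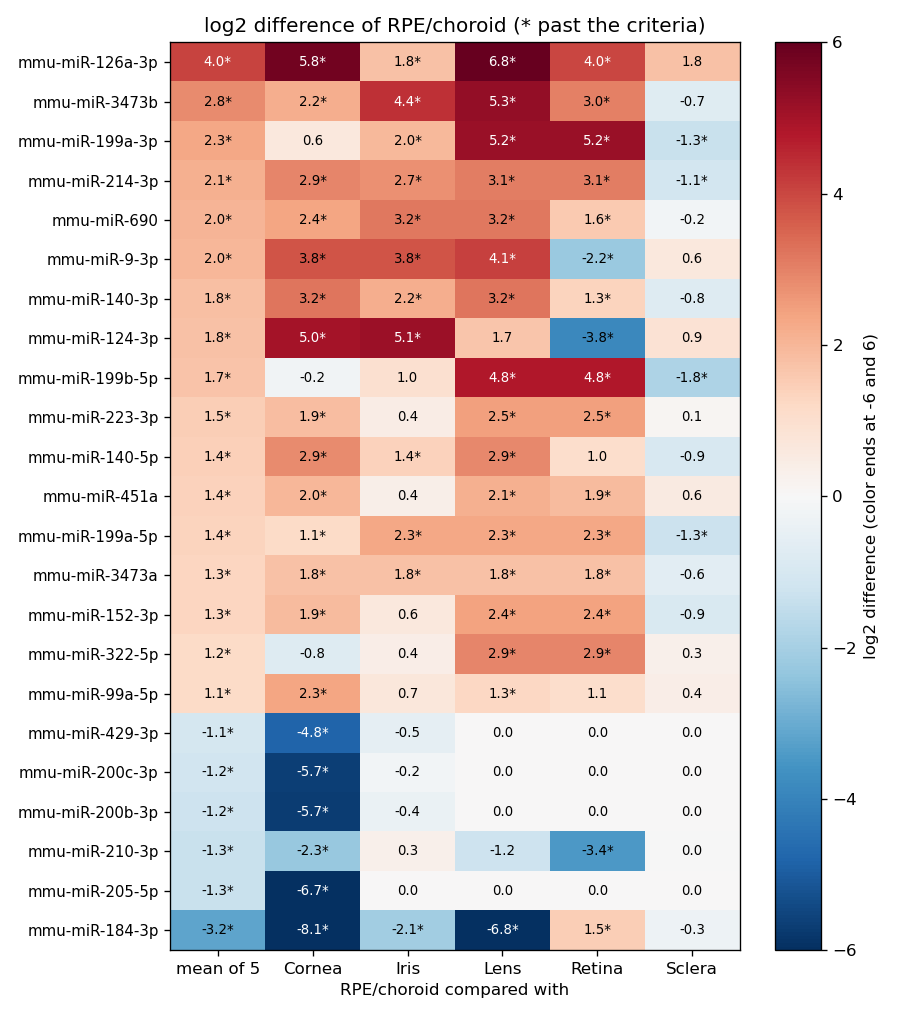
Log2 difference between RPE/choroid and the mean of the other 5 tissues (first column) or each tissue, for the 17 higher and 6 lower miRNAs, with signals under the floor set to the floor and a star where all criteria were met. In the sclera column most values of the 17 are near 0 or below, and mmu-miR-126a-3p has the highest, 1.8.

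The retina miRNAs need separate account, because the retina lies on the RPE. All 10 miRNAs of the retina list were lower in RPE/choroid than in retina, with a median log2 difference of -3.82. Over all miRNAs tested, 14.6% were lower than in retina. Of the 10, however, 9 were detected on at least 1 RPE/choroid array, as were 231 of the 295 miRNAs tested. Mmu-miR-124-3p, a neuronal miRNA, gave 985, 724 and 570 in RPE/choroid against 11409, 10441 and 10202 in retina and 587, 346 and 321 in sclera. Mmu-miR-183-5p, a miRNA of photoreceptors and other sensory cells, gave 900, 588 and 520 in RPE/choroid against 9710, 8510 and 8906 in retina. Both were a small part of the retina signal but higher than in cornea and iris. Only mmu-miR-124-3p and mmu-miR-9-3p were past the criteria against the mean of the other tissues, at 1.77 ± 0.36 and 2.01 ± 0.21 (SE).

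As a percent of the retina array of the same slide, the members detected had a median of 8.48% in normal, 6.90% in 0D and 5.46% in lens-induced RPE/choroid. The same medians in sclera were 5.99%, 2.94% and 3.15%, and in iris they were all under 1%. In cornea, with 4 or 5 members detected, they were 1.48%, 1.46% and 2.0%. In lens, with 3 members detected, they were 0.92%, 2.22% and 3.16%, in the opposite order over the lens groups to that of RPE/choroid. Of the 8 members with a percent on all 3 slides, all 8 were highest on the normal slide and 6 fell from normal through 0D to lens-induced. With 1 array in each lens group this order has no test. The amount of retina tissue on each array was not measured, and the source of these signals was not tested. Most members lay close together, as for the miR-183, miR-96 and miR-182 cluster at 9.27%, 8.48% and 6.80% on the normal slide. Mmu-miR-9-3p stood above them in RPE/choroid at 24.1%, 17.7% and 22.2%, and in sclera at 13.9%, 12.9% and 13.6%. Its other arm, mmu-miR-9-5p, came next at 14.3%, 9.66% and 11.2%.

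When the median percent of the retina signal was taken off each RPE/choroid array, 15 of the 17 higher miRNAs were still past the criteria. The median rests on the retina list itself, so that the list's own members were reduced by construction. Mmu-miR-124-3p was lost, and its difference turned to -4.05, while mmu-miR-99a-5p no longer met the size criterion. That share of the retina signal came to 97.7% to 99.5% of the mmu-miR-124-3p signal in RPE/choroid. This follows from the construction, since its own percent of retina (8.63%, 6.94% and 5.59%) lay next to the list median. For other list members the share exceeded the whole signal, as for mmu-miR-129-2-3p at 145%, 126% and 111%. The share came to 24.6% to 39.1% for mmu-miR-9-3p, also on the list. It came to at most 0.503% for mmu-miR-126a-3p, which is not on the list.

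**Figure D4:**
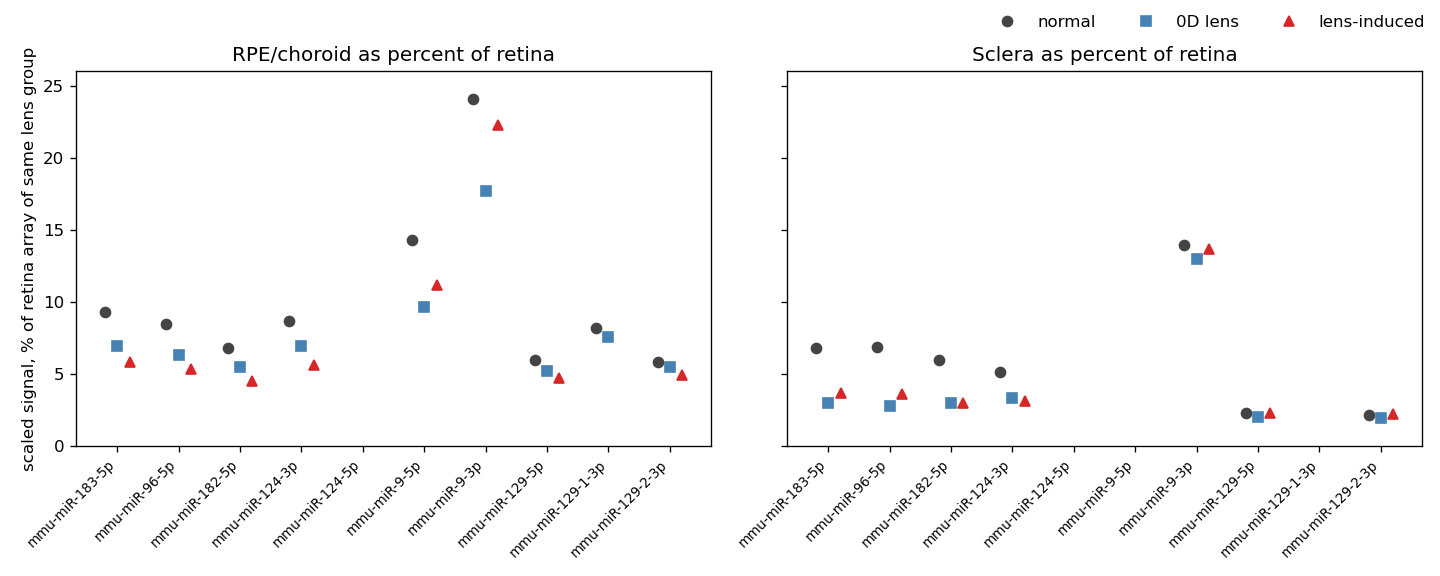
Signal of the retina miRNAs in RPE/choroid (left) and sclera (right) as percent of the retina array of the same lens group, by miRNA, with no symbol where the miRNA was not detected. Most RPE/choroid points lie between 4.53% and 9.27%, while mmu-miR-9-3p reaches 24.1%.

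The labelled tissue was checked against miRNAs of pigmented cells, since the arrays measure no messenger RNA. All 4 members, the arms of miR-204 and miR-211, were detected on all 3 RPE/choroid arrays, and none was past the criteria against the mean of the other tissues (median 0.30). Mmu-miR-204-5p, an abundant miRNA of the RPE, gave 758, 881 and 768 in RPE/choroid, which is less than the 1198, 1349 and 1247 of the lens. It was higher than in iris (288, 304 and 295) by 1.44 ± 0.10 (SE, adjusted p = 9.7e-08). Mmu-miR-204-3p, the opposite arm, was highest in RPE/choroid on every slide at 34.3, 31.3 and 34.5, with lens next at 24.4, 25.2 and 25.5. Mmu-miR-211-5p, which shares the miR-204-5p seed and is made in pigment cells, gave 71.9, 128 and 108 in RPE/choroid against 782, 906 and 772 in iris and 162, 190 and 144 in retina. It was lower than in iris by -3.04 ± 0.37 on the log2 scale, and RPE/choroid lay below retina on every slide. The remaining member, mmu-miR-211-3p, gave 28.0, 26.3 and 28.7 in RPE/choroid. It was higher in lens, at 432, 415 and 326, and in iris, at 53.6, 49.0 and 77.1. All 4 members were detected on at least 1 array of every ocular tissue, so detection on its own does not set the RPE/choroid apart. In iris mmu-miR-204-3p was detected on 1 array only, at 2.63, and in cornea mmu-miR-211-3p on 1 array only, at 8.51. Their summed signal was highest in lens, at 1620 to 1818, against 892 to 1066 in RPE/choroid. Among the 4, mmu-miR-204-3p alone was highest in RPE/choroid.

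The lower miRNAs were chiefly those of surface epithelium, which covers the cornea. Of 9 epithelial members tested, 4 were lower than the mean of the other tissues and all 9 were lower than in cornea, with a median log2 difference of -4.60. Over all miRNAs tested, 2.03% were lower than the mean and 8.14% were lower than in cornea. Mmu-miR-205-5p, a miRNA of stratified epithelium, gave 1098, 1108 and 895 in cornea and was not detected in RPE/choroid, lens, retina or sclera. RPE/choroid was at least 127-fold below cornea. The shared-seed group mmu-miR-200b-3p, mmu-miR-200c-3p and mmu-miR-429-3p was not detected in RPE/choroid either. The cornea signals exceeded the RPE/choroid limit by at least 64.0-fold, 61.7-fold and 34.4-fold. Their difference from the mean came from the cornea, and in part from the iris, since lens, retina and sclera did not detect them. All 3 lost the call against the mean at 2 times the floor and with the floor raised to 27.4. With quantile normalization mmu-miR-200c-3p and mmu-miR-429-3p lost it, and with normexp mmu-miR-429-3p did. The calls of mmu-miR-205-5p and mmu-miR-184-3p were kept under these alternatives.

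The exception in the epithelial list was mmu-miR-31-5p, the only member detected in RPE/choroid, at 22.6, 22.1 and 24.6. It was also the only miRNA higher in RPE/choroid than in sclera, where it was detected on 2 arrays at 7.95 and 8.76 (difference 1.22 ± 0.08, SE, with sclera at the floor). With the floor doubled to 19.9 this difference was 0.22 and no longer past the criteria. Cornea and lens were far above it, at 273, 256 and 211 and at 370, 321 and 358. Its opposite arm, mmu-miR-31-3p, was not detected in RPE/choroid.

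Mmu-miR-184-3p, a miRNA of cornea and lens, had the largest negative difference from the mean, -3.17 ± 0.26 (SE, adjusted p = 2.7e-07). It gave 147, 99.7 and 132 in RPE/choroid against 36854, 29710 and 34076 in cornea and 16120, 11130 and 16390 in lens. RPE/choroid was nevertheless above retina, at 70.5, 32.6 and 40.7. Mmu-miR-210-3p, a miRNA induced by low oxygen, gave 64.7, 48.5 and 48.9 in RPE/choroid, close to sclera at 59.3, 54.0 and 49.1. It was 676, 514 and 560 in retina, and the log2 difference of RPE/choroid from retina was -3.44 ± 0.16. Its difference from the mean, -1.33, was no longer past the criteria without scaling (-0.69) or with quantile normalization (-1.28). The median percent of the retina signal came to 88.5%, 73.1% and 62.6% of its signal in RPE/choroid.

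**Figure D5:**
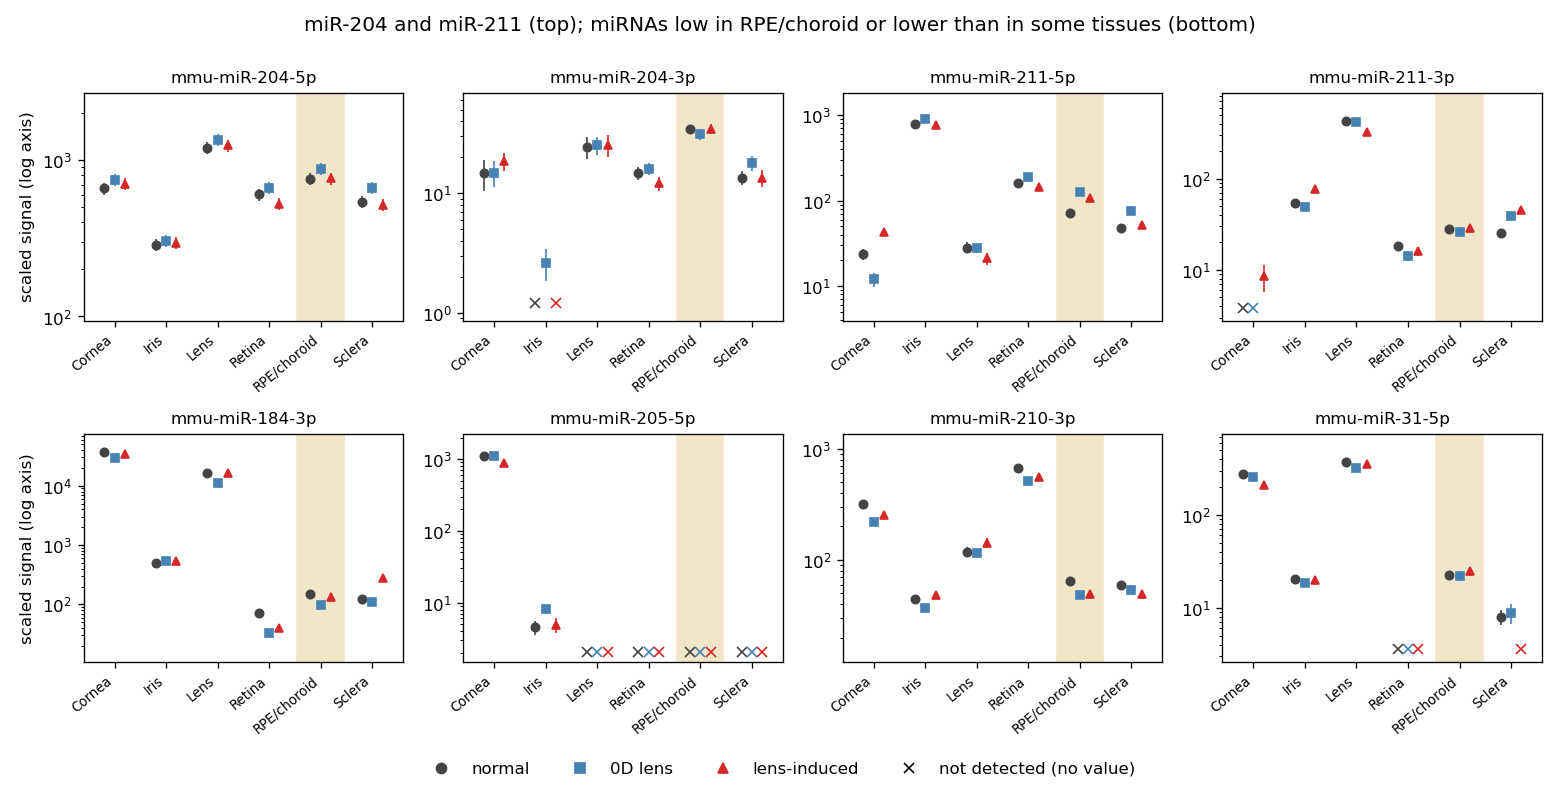
Scaled signal (log axis) of the arms of miR-204 and miR-211 (top) and of mmu-miR-184-3p, mmu-miR-205-5p, mmu-miR-210-3p and mmu-miR-31-5p (bottom), by tissue and lens group, with bars for the error of the signal on 1 array and crosses for arrays that did not detect the miRNA. The 3 RPE/choroid arrays (shaded) are highest for mmu-miR-204-3p, and no RPE/choroid array detected mmu-miR-205-5p.

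Of the 2 smooth muscle members tested, 1 was lower in RPE/choroid than in iris, where 4.75% of all miRNAs tested were lower. The other, mmu-miR-145a-5p, gave 15.2, 14.8 and 24.1 in iris and was detected in no other ocular tissue. Of the 4 striated muscle members none was past the criteria against iris in either direction (median log2 difference 0.22). Mmu-miR-143-3p, a miRNA of smooth muscle, gave 42.0, 43.0 and 44.6 in RPE/choroid and 304, 310 and 307 in iris, whose muscles set the pupil. RPE/choroid was lower than iris by -2.83 ± 0.13 on the log2 scale (SE, adjusted p = 9.2e-10). It was past the criteria as higher than cornea, lens and retina, none of which detected mmu-miR-143-3p. Set against the detection limits, RPE/choroid was at least 2.21-fold above cornea, 1.71-fold above lens and 7.44-fold above retina. The bound for lens is under 2-fold, so that the call there rests on the floor. Sclera was close, at 39.9, 37.3 and 24.1. Mmu-miR-133a-3p and mmu-miR-133b-3p, miRNAs of striated muscle, were detected in RPE/choroid at 29.1, 46.8 and 49.3 and at 44.6, 70.2 and 68.8. Iris gave 27.6, 29.8 and 31.3 for the first and 41.9, 45.5 and 45.6 for the second, below RPE/choroid on every slide. Sclera, to which the eye muscles attach, gave 78.5, 170 and 133 for mmu-miR-133b-3p, and lens gave 355, 325 and 340. For both miRNAs the normal array was the lowest in RPE/choroid and in sclera. Also lower than in iris were mmu-miR-34a-5p, at 53.0, 47.9 and 54.7 against 299, 264 and 291, and mmu-miR-193b-3p, at 57.3, 58.3 and 64.6 against 199, 175 and 219.

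Besides the 4 mesenchyme miRNAs, 5 were lower in RPE/choroid than in sclera. These were mmu-miR-379-5p, mmu-miR-127-3p, mmu-miR-154-5p, mmu-miR-434-3p and mmu-miR-148a-3p. Mmu-miR-379-5p gave 10.2, 9.43 and 9.12 in RPE/choroid against 41.1, 32.2 and 30.5 in sclera. Mmu-miR-127-3p gave 15.4, 19.5 and 13.9 against 56.6, 54.5 and 49.5. For both, no RPE/choroid array reached the sclera range, and the log2 differences were -1.77 ± 0.10 and -1.74 ± 0.10 (SE). Of these 5, mmu-miR-379-5p alone was still past the criteria without scaling, but its RPE/choroid signals were close to the floor or under it. With the floor raised to 27.4, only the 4 mesenchyme miRNAs were lower than in sclera, and none of these 5 remained. With a normexp background correction only mmu-miR-199a-3p and mmu-miR-199b-5p were lower than in sclera, and again none of these 5 remained.

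Among the dim miRNAs, mmu-miR-139-5p gave 18.3, 20.1 and 19.4 there and at most 4.88 on the other arrays that detected it. Mmu-miR-146a-5p, which is induced in inflammation, gave 13.1, 16.0 and 12.9 in RPE/choroid. It was 8.15 and 8.25 on the normal and 0D sclera arrays and 6.43, 6.58 and 5.98 in iris, and retina did not detect it. Cornea and lens detected neither, and their detection limits were above or near these signals, so that a like level there would be missed. Both were highest in RPE/choroid in all 3 lens groups, as were mmu-miR-126a-3p, mmu-miR-204-3p, mmu-miR-451a and mmu-miR-99a-5p, which makes 6 of the 295 miRNAs (2.03%). No miRNA was lowest in RPE/choroid in all 3 lens groups.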

How the data were processed

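Total RNA was labeled with Cy3 and hybridized to 1-color Agilent mouse miRNA arrays. The deposited scanner files hold intensity values that the authors made with Agilent Feature Extraction 10.7.1.1, which subtracts the background and combines the spots of a probe into a total signal with an error. For each miRNA, probe signals above 3 errors were summed over its 1 to 4 probes, and a miRNA without such a probe was not detected. Arrays were brought to the same 75th percentile, taken over the 79 miRNAs that every one of the 24 arrays detected, with log2 factors of -1.01 to 1.65 that were highest in lens. Values under a floor of 9.93, the highest of the arrays' lowest detected signals, were set to the floor before taking log2. This understates the spread of miRNAs at the floor.

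The 18 ocular arrays were fitted with limma 3.58.1 in R 4.3.3, with 1 mean per tissue, and p-values were adjusted by Benjamini-Hochberg over 295 miRNAs. The criteria were tested on simulated data for the comparison with the mean of the other tissues, over 295 miRNAs with 40 changed, of which 6 were called at 2-fold, 39 at 4-fold and 40 at 8-fold, with 0 unchanged miRNAs called. The 40 were drawn only from miRNAs well above the floor, without slide effects or detection limits that differ between tissues. The simulation therefore does not describe calls that rest on values at the floor, which were most of the calls against the mean. Named miRNAs were the detected members of 13 cell type lists, up to 12 with the largest difference in each direction, those that differed from all 5 tissues, and the 5 detected on the fewest other arrays. Others, such as those compared with a single tissue, mmu-miR-139-5p and mmu-miR-574-3p, were chosen after their values were seen. The members and lists were chosen with earlier results of these data known, so that lists are described by counts and medians only. Alternatives covered the scaling, the floor, the filter, the background, the lens group as a block, left-out arrays and subtraction of retina signal. A deposited table named normalized was not used. Sequences of 69 of the 81 named miRNAs were taken from RefSeq. Python 3.11.15, numpy 2.4.6, pandas 2.3.3 and matplotlib 3.10.9 were also used.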

Additional observations from a re-analysis of the deposited data

Results flagged for a closer look

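Of the 42 miRNAs named by rule and detected on all 3 RPE/choroid arrays, 7 lay above the mean of the other 5 tissues in some lens groups and below it in others. For 3 of the 7 the difference was larger than the error of the RPE/choroid signal in both directions, and these are given here. These differences between lens groups were not tested, since each has 1 array per tissue. Mmu-miR-129-2-3p differed from the mean by 0.24 on the log2 scale in normal, 0.19 in 0D and -0.23 in lens-induced eyes. Cornea, iris, lens and sclera were under the floor for it or did not detect it, so that the sign depends on the floor. RPE/choroid, at 24.8, 24.2 and 17.3, was far below retina, at 424, 443 and 352, in every lens group. Mmu-miR-182-5p, also a retina miRNA, differed by 0.25, 0.084 and -0.21, with iris and lens undetected and set to the floor. Mmu-miR-211-5p differed by -0.22, 0.59 and 0.30, with the normal RPE/choroid array the lowest of the 3.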

How the results depend on the processing

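The size of the calls depends mostly on how undetected miRNAs and array brightness are handled, and only 3 of the 17 higher and 2 of the 6 lower miRNAs had all 18 values above the floor. Higher than the mean of the other 5 tissues were 41 without scaling, 84 with undetected values at 0.1, 11 at 2 times the floor, 8 with the floor at the detection limit (an alternative chosen after seeing the data), 3 with miRNAs detected on all 18 arrays and 3 with normexp. Lower were 57, 2 and 16 with undetected values at 0.1, detection on all 18 arrays and retina signal subtracted, and 13 and 13 within the normal and 0D groups by 2-fold alone without a test. Subtraction turned mmu-miR-124-3p, a member of the list that set the share, to -4.05. Without scaling the median of all miRNAs shifted to 0.33, and with normexp to -0.42, where 37.5% of the calls were higher.

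Differences from cornea numbered 59, and 112 without scaling, 103 with undetected values at 0.1, 39 with the raised floor, 25 on all 18 arrays and 36 with normexp. From iris they numbered 30, and 50, 63 and 11 without scaling, at 0.1 and on all 18 arrays. From lens they numbered 107, and 167 and 53 at 0.1 and on all 18 arrays. From retina they numbered 77, and 116, 147, 44, 31 and 40 without scaling, at 0.1, with the raised floor, on all 18 arrays and with normexp. From sclera they numbered 10, and 25, 21, 5, 0 and 3 in the same order, with 20, 42 and 43 within the normal, 0D and lens-induced groups by 2-fold alone. The count of 0 rests on 88 miRNAs in limma. Higher than each of the 5 tissues was 1 miRNA without scaling (mmu-miR-139-5p) and 1 with quantile normalization, at 2 times the floor, with the raised floor and with normexp (mmu-miR-126a-3p), and 1 was lower than each with retina signal subtracted (mmu-miR-210-3p).

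Leaving out 1 array gave 19 to 20 higher and 6 to 10 lower than the mean, and 0 to 1 higher than each of the 5 tissues (mmu-miR-126a-3p, without any 1 cornea array). In each of these runs the criteria against the mean covered only the 2 lens groups without the left-out array. The 10 lower arose when 1 array of the lens-induced group was left out. When 1 array of the normal or 0D group was left out, 6 were lower. The replicate block for the lens group gave 17 higher and 6 lower, and changed no call against the mean. Against single tissues it changed 1, with 15 in place of 16 higher than iris (mmu-miR-126a-3p was lost, adjusted p = 0.053). Quantile normalization gave 13 and 4, the percentile over 18 arrays 16 and 7, and no filter and a trended prior 17 and 6. The 75th percentile over all miRNAs was 0 on the arrays and was not run.

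Without scaling the list medians were 0.79 for retina, 0.94 for pigment cells, 4.53 for endothelium, 2.07 for blood cells, 0.56 for smooth muscle, 0.37 for striated muscle (-0.19 with scaling), 2.69 for mesenchyme, 1.16 for miR-29, 2.03 for cartilage and matrix, -1.01 for surface epithelium, -2.54 for mmu-miR-184-3p, 0.61 for myelin and 0.67 for inflammation. With quantile normalization they were -0.24 for retina (0.05 in the main setting), 1.04 for blood cells, 0.14 for smooth muscle, 1.57 for mesenchyme, -0.83 for surface epithelium and -2.18 for mmu-miR-184-3p, and smooth muscle was 0.29 with the percentile over 18 arrays. The median percent of retina was 12.3% and 7.30% in normal and lens-induced eyes with quantile normalization and 4.81% in 0D eyes without scaling. Where calls changed, the cause was not tested further.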

Other observations

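Some dim miRNAs were seen in RPE/choroid and sclera alone. Mmu-miR-7011-5p gave 6.04, 7.68 and 6.31 in RPE/choroid and 12.9, 25.9 and 20.7 in sclera, and mmu-miR-6973b-5p gave 5.64, 6.78 and 6.26 against 9.41, 14.1 and 12.3. The same held for mmu-miR-5128, at 4.27, 7.29 and 5.13 in RPE/choroid, and for mmu-miR-7070-5p, at 4.50, 5.38 and 5.49 against 12.9, 10.4 and 8.81. In all of these the sclera array was the higher on each slide, and the signals in RPE/choroid were under the floor. The cornea and lens limits were above these signals.

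Mmu-miR-338-3p, a miRNA of myelin-forming cells, gave 49.9, 51.5 and 50.7 in RPE/choroid, close to retina at 52.0, 60.4 and 45.4, and its range in RPE/choroid was narrow. The other myelin members were not detected in RPE/choroid. Mmu-miR-21a-5p gave 237, 256 and 251 in RPE/choroid, and mmu-miR-155-5p gave 7.12, 5.81 and 6.56, under the floor.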
